A study of Homo sapiens with 16 samples.

Results

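The peaks described here are the regions of RNA that were enriched by an antibody against N4-acetylcytidine (ac4C) in control cells of 2 experimental rounds, called first and replicate. They were chosen by source alone: all 685 peaks of the first-round control list and all 10253 peaks of the replicate-round control list, together 10938 of the 28357 peaks in the 4 lists of the series. UM-UC-3, an established human bladder cancer cell line, was transfected with 75 nM of a negative-control siRNA and taken after 48 h. RNA from these cells was immunoprecipitated with the ac4C antibody (acRIP) and compared with the input RNA, 1 immunoprecipitate and 1 input per round. The other arm received an siRNA against NAT10 (NAT10-si) and gave 17419 peaks, used below only as a comparator. Expression came from 2 control RNA-seq libraries, replicates 2 and 3, and the first-round control RNA-seq library was not analysed here. The labels name the immunoprecipitation kit for the replicate round and not for the first. The sample descriptions name the replicate-round list, whereas only the file's own label tells which arm and round the first-round list belongs to.

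ac4C is a cytidine with an acetyl group on its base. In human cells NAT10 is the acetyltransferase that makes it in 18S ribosomal RNA and, with the adaptor THUMPD1, in transfer RNAs, and ac4C has also been described in messenger RNA, where its extent is debated. In acRIP, RNA fragments are pulled down with an antibody and a peak is a stretch with more reads in the immunoprecipitate than in the input, so a peak gives a region of enrichment and not a modified base.

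The control siRNA is shown because it defines the group, with its DNA overhang in capitals (5′ to 3′).
control siRNA: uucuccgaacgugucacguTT

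Both lists gave each peak its exon blocks, strand, gene, fold of immunoprecipitate over input and p-value. The first-round list covered 140.8 kb in 620 genes and the replicate-round list 2360 kb in 8057 genes. The replicate round thus covered far more of the transcriptome, at the same median peak width of 181 bases. The authors' folds ran from 1.54 to 5250 in the first list (median 44.3) and from 1.19 to 18200 in the replicate list (median 24.1). The highest p was 0.001 in the first list and 0.04 in the replicate list, and 685 and 8188 peaks had a false discovery rate of 0.05 or less. The replicate list therefore reaches to weaker peaks. Peaks in a single exon block made up 66.1% of the first list (453 peaks) and 84.5% of the replicate list (8662 peaks). In both lists most genes had 1 peak, 92.1% of genes in the first and 78.2% in the replicate list.

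Many peaks had the same fold and p as another peak of their list, also at unrelated places: 479 first-round peaks (69.9%) and 5461 replicate-round peaks (53.3%). Ranks by fold therefore hold many ties. A peak on the opposite strand covered at least 50% of 33 first-round peaks (4.82%) and of 862 replicate-round peaks (8.41%). Reads from sense and antisense genes cannot be told apart at those places, since no strand setting is given in the sources used here. Each list came from 1 immunoprecipitate, so no spread between replicates exists and no difference between the rounds was tested. Intervals are exact 95% Clopper-Pearson intervals and cover counting error only.

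Cell identity was checked in the control libraries. KRT18, a keratin of simple epithelia, was at 85.7 and 85.8 FPKM (fragments scaled to gene length and library size) in replicates 2 and 3, and VIM, a mesenchymal intermediate filament, was at 672 and 654 FPKM. All 4 mesenchymal markers were at or above 1 FPKM, against 3 of 6 epithelial markers. Of 4 basal markers only CD44 was, at 105.7 and 106.0 FPKM, and not KRT5, KRT14 or TP63. CDH1, the epithelial cadherin, was at 0.00442 and 0 FPKM, and 2 of 6 luminal urothelial markers reached 1 FPKM. None of the 4 leukocyte, 3 endothelial and 3 plasma cell markers did.

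The first question was whether the same sites were found in both rounds. Of the 685 first-round peaks, 41 (5.99%, interval 4.33 to 8.03) shared at least 1 base of exon block on the same strand with a replicate-round peak. Seen from the replicate list, these were 39 of 10253 peaks (0.380%). The 42 overlapping pairs shared a median of 120 bases, and in 27 of them the overlap covered at least 50% of the first-round blocks. In 3 pairs, at TOMM34, SRRM2 and the junction of MT-ATP6 with MT-CO3, only 1 base was shared. The pair at IMPDH2, the rate-limiting enzyme of guanine nucleotide synthesis, was the only one with identical boundaries, at chr3:49024921-49025185. The NAT10-si arm gave 81 of 666 first-round peaks (12.2%, interval 9.78 to 14.9) overlapped by its replicate round, whose list is longer, with 16753 peaks over 4549 kb.

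With mitochondrial peaks included, the share overlapped was in both lists higher in the strongest group of peaks than in the weakest. The difference was not tested. With each list cut by p into 4 groups of near equal size, the strongest group of the first list had 14 of 172 peaks overlapped (8.14%) and the weakest 7 of 171 (4.09%). In the replicate list the strongest group had 19 of 2564 overlapped (0.741%) and the weakest 5 of 2563 (0.195%). Among peaks of nuclear genes 34 of 670 (5.07%, interval 3.54 to 7.02) were overlapped, and among mitochondrial peaks 7 of 15 (46.7%, interval 21.3 to 73.4). All 7 of these mitochondrial peaks had a log10 p of -313 or lower. They thus make up 7 of the 14 overlapped peaks in the strongest group of the first list, which reached up to -76.9. In the first list the higher share of the strongest group therefore rests largely on mitochondrial peaks. The share by strength was not computed without them. For genes at a mean of at least 1 FPKM the count was 38 of 468 first-round peaks (8.12%).

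Sites found in both control rounds were also looked up in the knockdown arm. Of the 41 overlapped first-round peaks, 38 (92.7%) also overlapped a peak of the NAT10-si replicate list, against 49 of the other 644 (7.61%). In the NAT10-si first-round list the counts were 1 of 41 and 21 of 644. Replicate-round control peaks with no first-round partner overlapped the NAT10-si replicate list in 7540 of 10214 cases (73.8%). The 41 were chosen for overlapping the control replicate list, so a high share in the NAT10-si replicate list is largely set by that choice. The 2 replicate-round lists thus held many of the same sites, across arms, while the 2 first-round lists shared few. The NAT10-si lists covered 4549 kb in the replicate round and 134 kb in the first, and the shares were not adjusted for this.

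**Figure D1:**
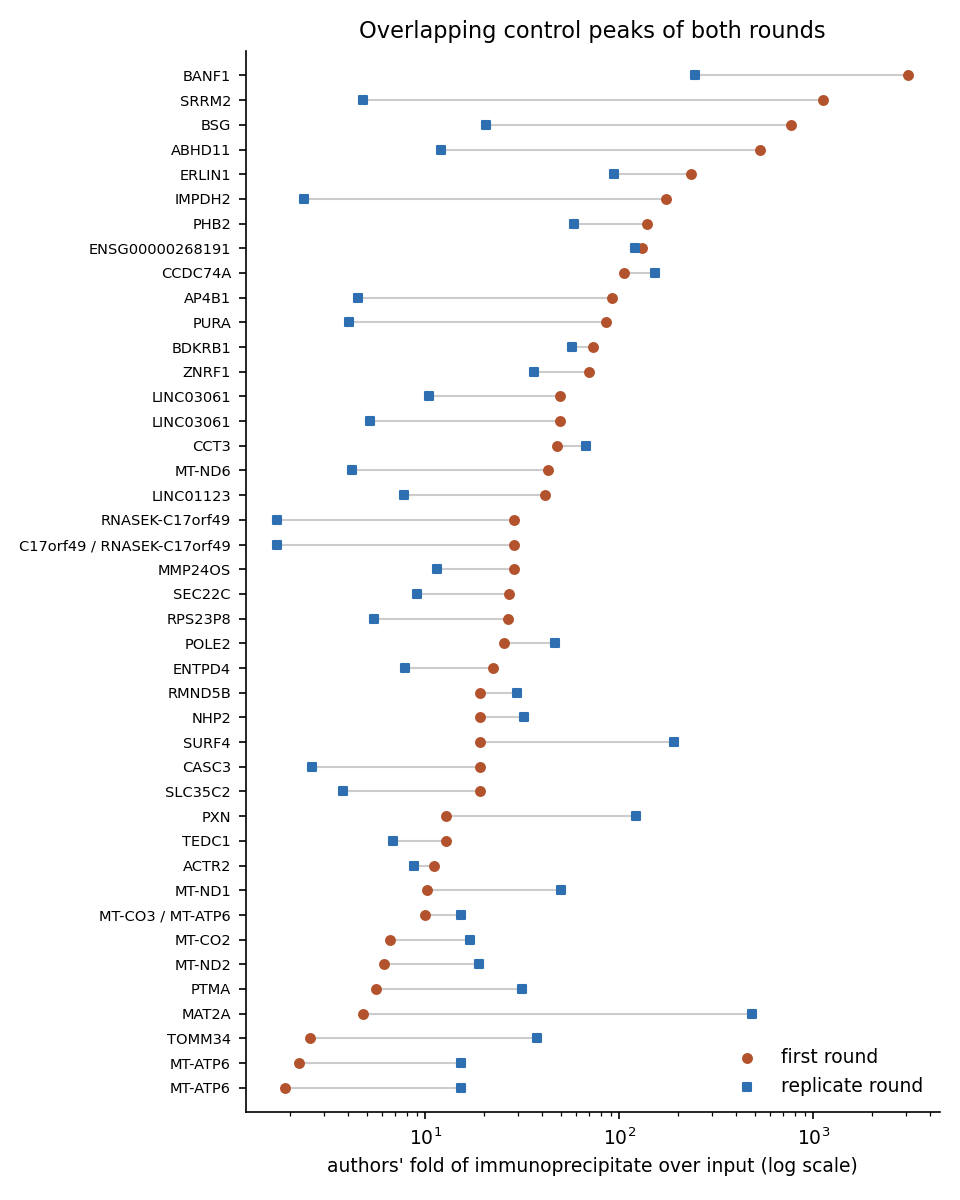
Authors' fold of immunoprecipitate over input (log scale) for each of the 42 pairs of overlapping control peaks, first round as circles and replicate round as squares, ordered by first-round fold. A label with 2 names marks a pair listed under different genes. BANF1 leads in the first round at 3080 and MAT2A in the replicate round at 484. Folds rank peaks within a list and are not levels to compare between lists.

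BANF1, a small DNA-binding protein that helps rebuild the nuclear envelope, had the highest first-round fold of any overlapped peak, 3080, second in the whole list. Its peak at chr11:66003671-66004089 (GRCh38, + strand) shared 389 bases, 92.8% of its length, with a replicate-round peak of fold 245. BANF1 had levels of 111.0 and 111.4 FPKM, so this was a site in a highly expressed gene. BSG, which encodes the cell-surface glycoprotein basigin, had folds of 763 and 20.5 with 91 shared bases, at 146 and 144 FPKM. SRRM2, a scaffold protein of nuclear speckles, had folds of 1120 and 4.75, but its peaks met in 1 base. ABHD11, a mitochondrial hydrolase, had folds of 529 and 12 and 120 shared bases at chr7:73737418-73737685.

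ERLIN1, an endoplasmic reticulum protein of lipid raft-like domains, had a first-round peak of fold 234 that lay wholly inside a replicate-round peak of fold 93.3. That site ended the gene: the middle of the first-round peak lay at 0.995 of the gene span from its 5′ end. PHB2, the mitochondrial inner membrane scaffold prohibitin 2, had a spliced peak of 4 blocks in each round with folds of 138 and 58.1. AP4B1, a subunit of an adaptor complex of vesicle transport, had folds of 91.9 and 4.51, and its replicate-round peak missed the false discovery rate of 0.05. CCDC74A, a coiled-coil protein, had a first-round fold of 105 and a replicate-round fold of 152, with 180 shared bases. The unnamed gene ENSG00000268191 had folds of 130 and 120 with 88 shared bases, at 1.16 and 2.46 FPKM.

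The order by replicate-round fold was different. MAT2A makes S-adenosylmethionine, the methyl donor of most cellular methylations, and its replicate-round peak at chr2:85544413-85545280 was 868 bases wide with fold 484. The first-round peak lay inside it with a fold of 4.75, 666th of 685 in its list. MAT2A was at 237 and 242 FPKM. SURF4, a cargo receptor of the endoplasmic reticulum, had folds of 19.0 and 190, and PXN, the focal adhesion protein paxillin, had 12.7 and 122. BDKRB1, the bradykinin B1 receptor, had 72.9 and 57.2 at 4.48 and 4.46 FPKM. At MAT2A, SURF4 and PXN the first-round fold was therefore low in its own list and the replicate-round fold high.

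Other overlapped sites lay in genes of varied roles. CCT3, a subunit of the cytosolic chaperonin, had folds of 47.5 and 67.4, with the first-round peak wholly inside the replicate-round one. PTMA, the nuclear protein prothymosin alpha, had folds of 5.54 and 31.3 and also a second replicate-round peak 3′ of it. CASC3, a core protein of the exon junction complex, had folds of 19.0 and 2.59. POLE2, a subunit of DNA polymerase epsilon, had folds of 25.3 and 46.4 and 31 shared bases in spliced peaks.

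NHP2, a protein of H/ACA small nucleolar ribonucleoproteins, shows the strand limit directly. Its first-round peak at chr5:178149519-178149697 (- strand, fold 19.0) lay on the same bases as a first-round peak of RMND5B on the + strand, also of fold 19.0. Both were overlapped in the replicate round, with folds of 32.2 and 29.7. NHP2 was at 84.5 and 88.2 FPKM and RMND5B, a subunit of a ubiquitin ligase complex, at 9.63 and 9.35 FPKM. The 2 entries may thus count the same reads. Likewise the peaks of C17orf49 and RNASEK-C17orf49 in the first round, both of fold 28.5, met 1 replicate-round peak of fold 1.72, and RNASEK-C17orf49 was listed at 0 in both libraries.

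Mitochondrial first-round peaks were overlapped more often than nuclear ones, 46.7% against 5.07%. The mitochondrial genome is small and held 12 replicate-round peaks, up to 684 bases wide. The share of it that they cover was not set beside the 46.7%, so no closer agreement between rounds can be read from that value. This genome is transcribed as long precursors from both strands that are cut into messenger, ribosomal and transfer RNAs. MT-ND2, a subunit of complex I, had the longest overlap of any pair, 477 bases of the 507 in its first-round peak, with folds of 6.14 and 18.8. MT-ND1 had folds of 10.2 and 49.8 and MT-CO2, a subunit of complex IV, 6.60 and 17.0, each first-round peak lying wholly inside the replicate-round one. MT-ND6, the messenger RNA of the opposite strand, had the highest mitochondrial fold of the first list, 42.9, and a replicate-round fold of 4.18, with 59 shared bases. MT-ATP6, a subunit of ATP synthase, had 2 first-round peaks of folds 1.89 and 2.22, both met by 1 replicate-round peak of fold 15.3.

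Mitochondrial transcripts were among the most abundant of the table. MT-ND1 was at 2754 and 2801 FPKM and MT-CO2 at 7059 and 7097 FPKM. Of the 23 mitochondrially encoded genes at or above 1 FPKM, 10 had a peak in each list (43.5%), 8 in both and 5 with overlapping peaks of the same name. Of all genes at 300 FPKM or more, the range of their median, 17.9% had a first-round and 87.4% a replicate-round peak. MT-ND5 and MT-RNR2, the large ribosomal RNA, had 3 first-round peaks each and no replicate-round peak, whereas MT-CYB and MT-ND3 had 1 replicate-round peak each and no first-round peak. MT-RNR1, the small ribosomal RNA, MT-ND4L and MT-ATP8 had none. Mitochondrial peaks were 15 of 685 (2.19%) in the first list and 12 of 10253 (0.117%) in the replicate list.

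At the level of genes the rounds agreed more often. The lists named 294 genes in common, 47.4% of the 620 first-round genes and 3.65% of the 8057 replicate-round genes. The corresponding NAT10-si lists shared 412 genes, 65.9% and 3.72% of each. Of the 13675 genes at a mean of at least 1 FPKM, 3.09% had a first-round peak, 50.6% a replicate-round peak, 1.97% a peak in both and 0.263% an overlapping peak in both. Of the 422 first-round genes in that range, 270 (64.0%, interval 59.2 to 68.6) were in the replicate list, to be read against the 50.6%. Below 1 FPKM, where 0.444% of genes had a first-round and 2.53% a replicate-round peak, 24 of 198 first-round genes (12.1%, interval 7.92 to 17.5) were in the replicate list.

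A gene in both lists seldom meant a shared site. Of the 294 genes, 38 had overlapping peaks and 256 did not. Among the 256, the nearest blocks of both rounds were a median of 5946.5 bases apart along the genome, introns included (quartiles 1533 and 18493 bases). The gap was below 300 bases in 23 genes, between 10000 and 100000 bases in 94 and larger in 8. The smallest was 28 bases. The plot of gaps therefore has its highest bar between 10 and 100 kb.

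**Figure D2:**
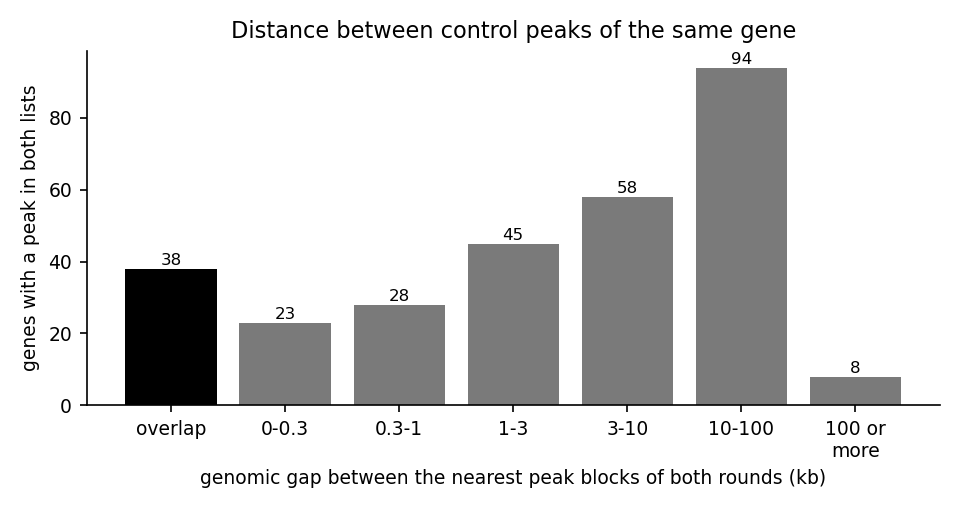
Number of genes named by both control lists (294 in all) by the genomic gap in kb between the nearest exon blocks of both rounds, introns included. The black bar is the 38 genes with overlapping peaks, and the gaps of 10 to 100 kb hold the most genes, 94.

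Expression separated shared from unshared genes. Genes in both lists had a median of 13.3 FPKM (13.0 in control replicate 2 and 13.2 in replicate 3), and 24 of 294 (8.16%) were below 1 FPKM. Genes in the first list only had a median of 0.616 FPKM (0.606 and 0.657), with 174 of 326 (53.4%) below 1 FPKM and 55 listed at 0 in both libraries. Genes in the replicate list only lay between, with a median of 7.81 FPKM (7.80 and 7.78) and 1107 of 7763 (14.3%) below 1 FPKM. The gaps between the 3 medians were larger than the differences between the 2 libraries. The 38 genes with overlapping peaks had a median of 44.6 FPKM (quartiles 6.88 and 112) and the other 256 shared genes 12.9 FPKM (quartiles 4.36 and 31.8). Among the 38, 5 were mitochondrial genes, between 2753 and 7078 FPKM. Of the 33 nuclear genes, the middle one by level was CASC3, at 16.7 FPKM.

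**Figure D3:**
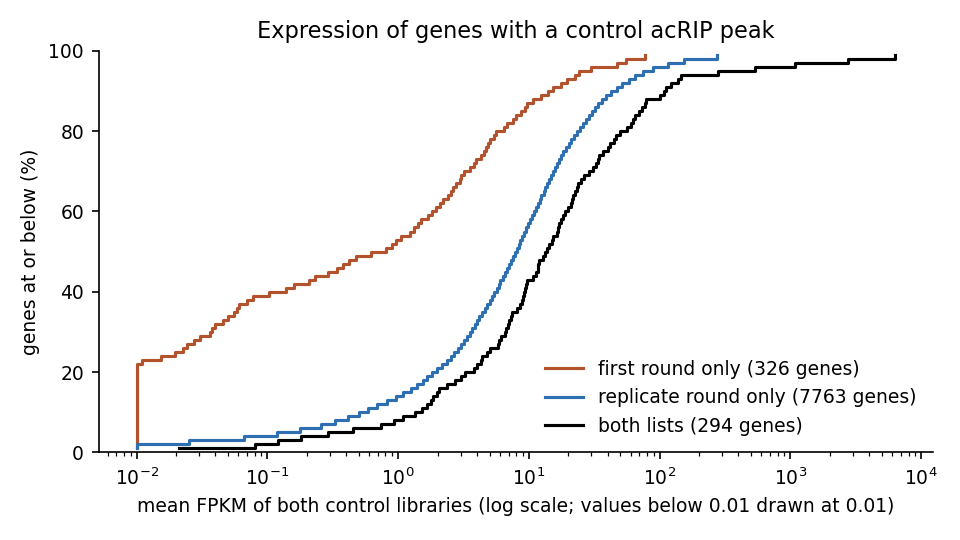
Cumulative share of genes (percent) by mean FPKM of both control libraries (log scale, values below 0.01 drawn at 0.01) for genes with a peak in the first round only, the replicate round only or both. The line of the first-round-only genes lies to the left, with a median of 0.616 against 7.81 and 13.3 FPKM.

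The replicate list followed expression closely. Its share of all genes was 27.7% between 1 and 3 FPKM, 48.1% between 3 and 10, 64.9% between 10 and 30 and 80.0% between 30 and 100 FPKM. Genes with a first-round peak stood higher in each of these ranges. Of first-round genes, 39.2% (interval 28.4 to 50.9), 53.7% (44.9 to 62.3), 73.6% (64.1 to 81.7) and 83.3% (72.1 to 91.4) had a replicate-round peak in the same 4 ranges. Genes with no first-round peak had 27.4%, 47.9%, 64.6% and 79.8%. The interval included the share of the other genes in the ranges of 3 to 10, 10 to 30 and 30 to 100 FPKM, and lay above it between 1 and 3 FPKM. Depth of the acRIP libraries is unknown, and its part in these shares was not tested.

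**Figure D4:**
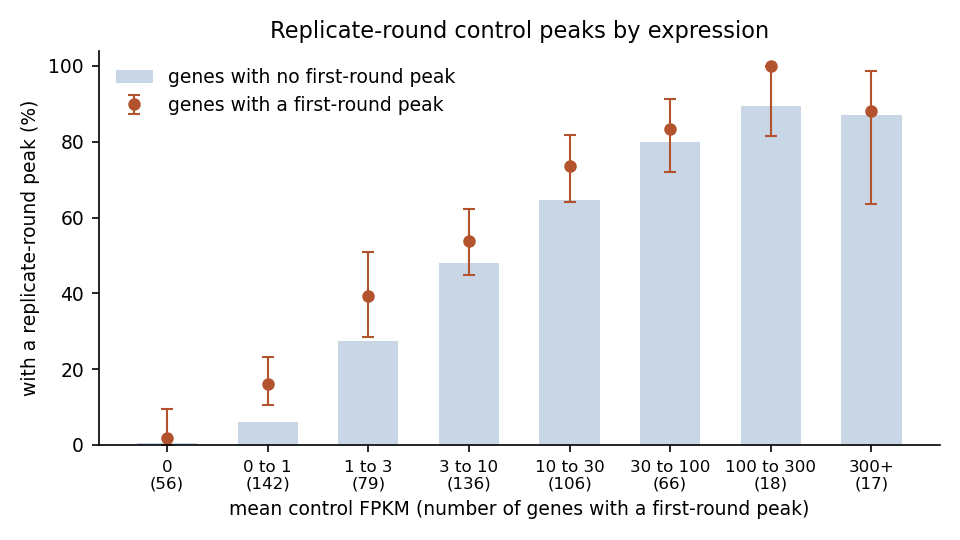
Share of genes with a replicate-round control peak (percent) by mean control FPKM, for genes with a first-round peak (points, exact 95% binomial intervals, number of genes in parentheses) and for all other genes (bars). Both rise together, from 39.2% and 27.4% at 1 to 3 FPKM to 83.3% and 79.8% at 30 to 100 FPKM.

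The lists also differed in where peaks lay in their genes. With each peak placed by its middle along the RefSeq gene span, introns included, 166 of 599 first-round peaks (27.7%, interval 24.2 to 31.5) and 6331 of 9176 replicate-round peaks (69.0%, interval 68.0 to 69.9) lay in the last 10% of the span. The first 10% held 7.85% and 2.33%. The median first-round peak lay at 0.680 of the span and the median replicate-round peak at 0.970. The same held within the shared genes, where 80 of 294 first-round peaks (27.2%) and 271 of 382 replicate-round peaks (70.9%) lay in the last 10%.

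Expression and block number moved with position without removing the gap between rounds. In genes at or above 1 FPKM the last 10% of the span held 30.6% of first-round and 70.7% of replicate-round peaks, and below 1 FPKM 20.2% and 52.5%. Among peaks of a single block it held 38.2% and 74.8%. The NAT10-si lists gave 28.8% in the first and 61.4% in the replicate round, so the 3′ position went with the round in both arms. In long noncoding RNAs the intervals of both rounds overlapped, with 13 of 33 peaks (39.4%, interval 22.9 to 57.9) and 202 of 547 (36.9%, interval 32.9 to 41.1) in the last 10%. Overlapped first-round sites lay in the last 10% in 18 of 30 placed cases (60%). They were chosen for overlapping the replicate list, which had 69.0% of its placed peaks there. A high share is thus largely set by that choice.

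**Figure D5:**
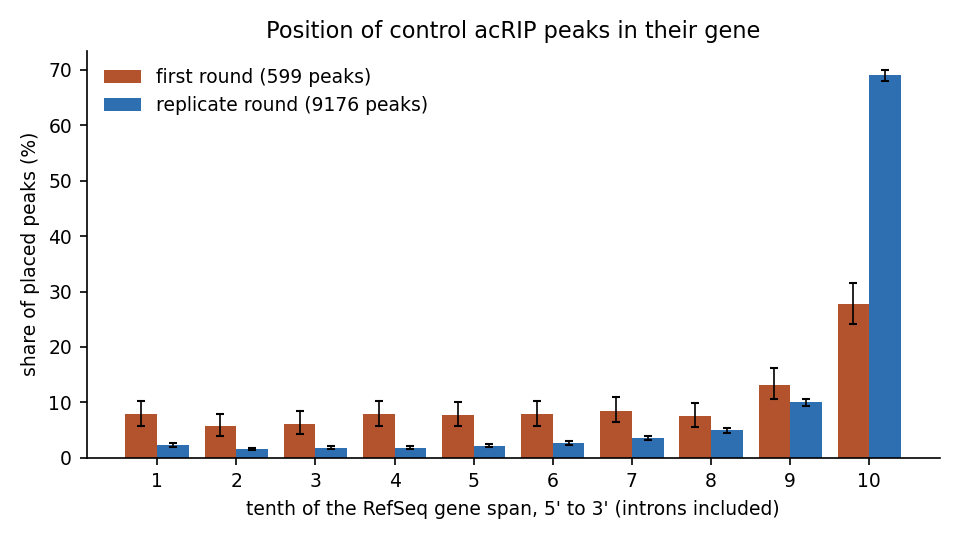
Share of placed control peaks (percent, exact 95% binomial intervals as error bars) in each of 10 equal parts of the RefSeq gene span from 5′ to 3′, first round (599 peaks) and replicate round (9176 peaks). The last holds 27.7% of first-round and 69.0% of replicate-round peaks.

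Single genes with a peak in both rounds differed in how far apart the positions were. AHNAK encodes a very large scaffold protein and was at 105.1 and 96.2 FPKM. Its first-round peak of fold 28.5 lay at chr11:62517914-62518094, at 0.254 of the span. Its replicate-round peak of fold 37.8 was spliced over 3 blocks and did not overlap the first-round peak. That replicate-round peak ran over chr11:62433872-62516325, introns included, with only 541 bases in its blocks. Its middle, at 0.633, therefore does not tell where the blocks lay. The nearest AHNAK blocks of both rounds were 1588 bases apart. KMT2D, a histone methyltransferase often mutated in bladder cancer, had a first-round peak of fold 1160 at 0.0818 of the span and a replicate-round peak of fold 11.2 at 0.998. IGF2BP2, an RNA-binding protein that reads methylated messenger RNA, had a first-round peak of fold 50.7 at 0.745 and a replicate-round peak of fold 51.3 at 0.995.

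By RefSeq gene type, the shared genes were mostly protein-coding: 264 of 294 (89.8%), against 70.2% of first-round-only genes, 82.9% of replicate-round-only genes and 75.6% of all genes at or above 1 FPKM. Pseudogenes were 1.02% of shared genes, 8.28% of first-round-only genes and 2.72% of replicate-round-only genes, against 3.62% of all genes at or above 1 FPKM. Pseudogenes share sequence with their parent genes, so reads at them can be misplaced. RPS23P8, a processed copy of a ribosomal protein gene, was the only pseudogene with an overlapping site, of folds 26.7 and 5.42, and is uncertain for that reason. Long noncoding RNA genes were 3.74%, 7.67% and 5.91%, against 6.43%. Genes with no RefSeq entry were 5.44%, 13.5% and 8.45%, against 13.2%.

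Gene groups were counted over members at or above 1 FPKM. For each, the share with a replicate-round peak is set beside the share of all genes in the FPKM range that holds the group's median, called the range share. First-round counts are read against the 3.09% of all genes at or above 1 FPKM. Of 83 cytosolic ribosomal protein genes, 82 (98.8%) had a replicate-round peak, at a range share of 90.1%. In the first round 3 of them (3.61%) had a peak, against 7.41% of genes between 100 and 300 FPKM, the range of their median. RPL26L1 had no peak in either list. RPL7A, of the large subunit, had folds of 177 in the first and up to 83.9 in the replicate round, and RPS4X, of the small subunit, had 15.8 and up to 111, both without overlap. Translation factors had 52 of 63 (82.5%, range share 64.9%) and 3 in the first round (4.76%), including EIF3L with folds of 45.9 and 9.67 and EIF4G1, the scaffold of the cap-binding complex, with first-round fold 6.34.

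Proteasome subunits had 40 of 44 in the replicate list (90.9%, range share 64.9%) and 2 in the first (4.55%), PSMB6 and PSMC6. Nuclear-encoded respiratory chain genes had 76 of 86 (88.4%, range share 64.9%) and only ATP5MG in the first (1.16%), with fold 5.28. Mitochondrial ribosomal proteins had 52 of 73 (71.2%, range share 64.9%) and, in the first round, 2 (2.74%). Glycolysis had 18 of 19 (94.7%, range share 80.0%), all but PDK1, and GAPDH in both rounds with folds of 1.64 and 31.7 and no overlap. Heat shock proteins and chaperonin subunits had 45 of 62 (72.6%, range share 64.9%) and, in the first round, 3 (4.84%). Of these groups, proteasome and respiratory chain genes lay farthest above the range share of the replicate list. Their medians, 28.3 and 27.6 FPKM, were however near the upper limit of the range of 10 to 30 FPKM, as was that of translation factors, 27.1 FPKM. In the next range, 30 to 100 FPKM, the share of all genes was 80.0%, so the range share understates the level for these groups.

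Genes of the cytoskeleton were the group with the highest first-round share among nuclear genes, 5 of 33 (15.2%): AHNAK, FLNA, PFN1, TPM1 and TPM2. All 5 also had a replicate-round peak, as did 31 of the 33 (93.9%, range share 90.1%), and none overlapped. PFN1, the actin monomer binder profilin, had folds of 6.71 and 399 at 539 and 528 FPKM. TPM2, a tropomyosin, had folds of 22.2 and, at its strongest replicate-round peak, 62.0. The first-round share of all genes at or above 1 FPKM is 3.09% and rises with expression, to 7.41% between 100 and 300 FPKM, the range of this group's median.

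Among genes of RNA processing and of the genome, splicing factors had 35 of 45 (77.8%, range share 80.0%) and, in both rounds, HNRNPA0 and SF3A1. Ribosome biogenesis had 35 of 52 (67.3%, range share 64.9%) and 3 in the first round. RNA modification enzymes and readers had 25 of 40 (62.5%, range share 64.9%), with IGF2BP2 alone in the first round. DNA replication had 35 of 47 (74.5%, range share 64.9%) with POLE2 in the first round, DNA repair 38 of 67 (56.7%, range share 48.1%) with MDC1, a mediator of DNA damage signalling, and mitosis 31 of 39 (79.5%, range share 80.0%) with SMC4.

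Solute carriers had 87 of 148 (58.8%, range share 48.1%) and 6 in the first round (4.05%), of which SLC38A2, a neutral amino acid transporter, was in both with folds of 21.4 and 123. Collagens and integrins had 19 of 26 (73.1%, range share 48.1%) and keratins 7 of 7 (range share 48.1%), none of either in the first round. Genes of the unfolded protein response had 17 of 25 (68.0%, range share 64.9%) and none. ZNF zinc finger genes had 107 of 289 (37.0%, range share 27.7%) and 5, with ZNF605 and ZNF616 in both lists. Wnt and bladder cancer genes had 15 of 22 (68.2%, range share 64.9%) and 2, AHNAK and KMT2D.

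Small noncoding RNAs had few peaks. None of 58 small nucleolar RNA genes (range share 48.1%), 32 spliceosomal small nuclear RNA genes (27.7%) and 24 genes of ribosomal, 7SK and 7SL RNA (27.7%) at or above 1 FPKM had a peak in either list. Clustered histone genes, which code for proteins and are a separate group, had 2 of 13 in the replicate list (15.4%, range share 27.7%). Fragment and library size steps are not described for these libraries, so the reach of the assay for short RNAs is not known. Hosts of small nucleolar RNAs, which are spliced noncoding RNAs, had 19 of 24 in the replicate list (79.2%, range share 64.9%) and none in the first. Genes with a MIR name, host genes included, had 13 of 122 (10.7%, range share 27.7%) and none in the first.

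Of the genes looked up by name, NAT10 itself had no peak in either list, at 19.0 and 17.6 FPKM, nor had THUMPD1, at 5.30 and 5.79 FPKM. SOX4, a transcription factor, had none at 1.17 and 1.34 FPKM. AKT1, a central survival kinase, had a replicate-round peak only, of fold 147 at chr14:104769349-104769618, at 0.995 of the gene span. BCL9L, a coactivator of beta-catenin, likewise had a replicate-round peak only, of fold 84.3 at 0.995. Neither gene had a first-round peak.

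Of first-round genes absent from the replicate list, those with the highest folds were listed at low levels. CD68, a lysosomal glycoprotein of macrophages, had the highest fold, 5250, at chr17:7579617-7580119, while CD68 was at 0.125 and 0.163 FPKM. PRNCR1, a long noncoding RNA, had fold 2410 at 0.0709 and 0.0482 FPKM. The unnamed gene ENSG00000224722 had fold 2370 at nearly the same bases on the other strand, at 0.153 and 0 FPKM. CYLD-AS1, antisense to a deubiquitinase gene, had 1280 at 0.513 and 0.434 FPKM, and ENSG00000273271 had 1240 at 1.58 and 1.57 FPKM. All of these were single-list sites, and PRNCR1 and ENSG00000224722 may count the same reads.

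MUC4 and MUC3A, membrane mucins with long tandem repeats, were singled out after their values were seen. MUC4 had 11 first-round peaks with folds between 22.2 and 767 and no replicate-round peak, at 0.0179 and 0 FPKM. MUC3A had 3, the widest 1528 bases with fold 640, at 0.0384 and 0.0359 FPKM. Repeats and near-identical family members make the placement of such reads uncertain. The olfactory receptor genes OR1I1 and OR4S1, chosen in the same way, had first-round folds of 22.2 and 19.0 and were listed at 0 in both libraries.

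The strongest peaks of the replicate list without a first-round counterpart lay mostly, but not all, in genes at higher levels. LINC01363, a long intergenic noncoding RNA, had the highest fold of the list, 18200, and was listed at 0 in both control libraries. SNHG19, a host of small nucleolar RNAs, was second with 7430, at 22.9 and 29.6 FPKM. COX6B1, a subunit of complex IV, SLC35B2, a Golgi transporter of the sulfate donor, and ENSG00000273619 had 1530 each. COX6B1 was at 88.9 and 93.7 FPKM and SLC35B2 at 33.6 and 34.1 FPKM. Apart from LINC01363, these genes were above 1 FPKM in both libraries. This is to be read against the whole groups. Below 1 FPKM were 14.3% of all replicate-round-only genes and 53.4% of all first-round-only genes.

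The starts of LINC01363 and SNHG19 are printed because the strongest 2 peaks of the replicate list reached them, unlike most peaks of that list. The sequences are RefSeq's for GRCh38.p14, on the - strand of both genes, 60 bases followed, in capitals, by those covered bases that lie within the first 50 of the transcript. LINC01363 was covered from its transcript base 14 on, at chr1:167195756-167195792, and SNHG19 from its base 1 on, at chr16:2155309-2155358.
LINC01363: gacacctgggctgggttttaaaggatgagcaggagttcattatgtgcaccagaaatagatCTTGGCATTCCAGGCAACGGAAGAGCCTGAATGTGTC
SNHG19: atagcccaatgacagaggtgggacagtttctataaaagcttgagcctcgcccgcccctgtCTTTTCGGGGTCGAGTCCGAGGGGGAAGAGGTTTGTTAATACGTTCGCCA
The peaks go on beyond the printed bases, to widths of 210 and 342 bases. Of the capitals, 9 of 37 in LINC01363 and 9 of 50 in SNHG19 are cytidines, the only base that can carry ac4C. Over both lists, 14 of 457 first-round peaks (3.06%) and 82 of 7681 replicate-round peaks (1.07%) whose gene matched a RefSeq promoter entry touched its window of 250 bases before to 50 after the start.

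Replicate-round peaks also covered microRNA hairpins that lie inside other genes. Of 1562 RefSeq hairpins, 5 lay whole in a replicate-round peak, 6 in part, and none met a first-round peak. The mature sequences of the 3 whole hairpins in the highest-fold peaks are shown with the seed (bases 2 to 8) in capitals, and no seed was shared among them.
hsa-miR-4647: gAAGAUGGugcugugcugaggaa
hsa-miR-4709-5p: aCAACAGUgacuugcucuccaa
hsa-miR-4709-3p: uUGAAGAGgaggugcucuguagc
hsa-miR-10393-5p: aGAAUUCUcuuauccaacaucaaca
hsa-miR-10393-3p: uGGUCAGAuuugaacucuucaa
The hairpin of miR-4647 (chr6:44254206-44254285, - strand) lay in the SLC35B2 peak of fold 1530. Those of miR-4709 and miR-10393 lay in peaks of NPC2, a cholesterol carrier of lysosomes, with fold 223, and of B2M, the light chain of class I molecules, with fold 204. The host genes were at 14.6 and 15.4 FPKM (NPC2) and at 80.7 and 85.1 FPKM (B2M). A peak at such a place cannot tell the host transcript from the microRNA precursor.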

How the data were processed

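Peaks and expression were taken from UM-UC-3 control cells as deposited. Each peak carries, per the file headers, exon blocks, the authors' fold enrichment (immunoprecipitate over input, a ratio), their p-value, and scores that are the log10 of this p and of its false discovery rate. The peak caller and the filters are not given in the sources used here. The expression table's header names no unit. They were taken as FPKM, scaled by the authors, because the control columns summed to 313227 and 315259. The submitters' processing notes name HISAT2 2.1.0, HTSeq 0.6.1 and the build hg19, yet 98.4% and 98.0% of control peaks whose gene has a RefSeq entry overlap that gene in GRCh38.p14, and contig names are those of GRCh38, so coordinates are given as GRCh38, counted from 1.

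Overlap was computed on exon blocks of the same strand in Python 3.11.15 (pandas 2.3.3, scipy 1.17.1) and tested on simulated intervals. Of 58302 gene identifiers, 57532 matched a symbol. The named genes were AHNAK, BCL9L, SOX4, AKT1, NAT10, THUMPD1, the 10 overlapped sites with the highest fold of each round, the 5 highest folds among genes of each list alone, and overlapped or shared members of 29 gene lists. A gene taken by this rule is not reported here. Members and lists were chosen with earlier results of these data known. Nothing states that the rounds or libraries came from separate cultures.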

Additional observations from a re-analysis of the deposited data

How the results depend on the processing

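Of 36 alternative values, 14 stayed within the counting interval, within 1.5 times the count or within 1 SD of the libraries, and 22 moved. The overlapped share of 5.99% became 3.94% (27 peaks) when 50% of the first-round blocks had to be shared, 1.61% (11 peaks) with the replicate list shortened to 685 peaks by lowest p, and 8.12% in genes of at least 1 FPKM. That shortening also took the 294 shared genes to 43, as fewer peaks were compared. It took the share of replicate-round peaks in the last 10% of the gene span from 69.0% to 55.9%, where genes of at least 1 FPKM gave 70.7%, single-block peaks 74.8% and genes in both lists 70.9%. Single-block peaks gave 38.2% in the first round. The share of genes with a first-round peak was 3.65% at 5 FPKM or more and 1.90% for all genes above 0, and with a replicate-round peak 63.0% and 26.6%. Leaving out either control library gave medians of 13.0 to 13.2 FPKM for shared genes, 0.606 to 0.657 for first-round-only and 7.78 to 7.80 for replicate-round-only genes. With genes below 1 FPKM removed these were 15.5, 4.81 and 9.90 FPKM, and with a false discovery rate of 0.05 or less 15.4, 1.06 and 9.80 FPKM. The order of the 3 groups was the same in each.

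The alternatives on position, on mitochondrial peaks, on single-block peaks and on overlap in genes of at least 1 FPKM were chosen after seeing the data. No paired analysis was possible because no result comes from a test: each round has 1 control list. acRIP depth is unknown, which limits what the absence of a peak in either list says.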

Other observations

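A few replicate-round genes carried many peaks, and they were singled out after their values were seen. VMP1, a membrane protein of autophagosome formation, had 7 entries with folds between 5.57 and 322, at 48.6 and 53.9 FPKM, and no first-round peak. One of these entries stands in the list 2 times with the same boundaries, chr17:59840853-59840973, and others overlap each other. EIF4A1, the RNA helicase of translation initiation, had 5 entries with folds between 6.29 and 45.8 and no first-round peak. It was listed at 1.13 and 1.17 FPKM. How reads shared by overlapping genes were counted was not examined here, which limits what a low listed level says. LINC03061, a long noncoding RNA at 61.0 and 65.1 FPKM, had 4 replicate-round peaks, the strongest of fold 965, and its single first-round peak of fold 49.6 met 2 weaker ones, of folds 10.4 and 5.16.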
